A study of Mus musculus with 14 samples.

Results

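The 10 genes Msx1, Msx2, Sox9, Snai1, Snai2, Twist1, Prrx1, Prrx2, Postn and Scx are genes of the mesenchyme that fills the endocardial cushions of the embryonic heart and later forms its valves. They were listed by name and read from the deposited value table. Each of them had 1 probe set with 1 gene symbol, so all 10 were measured, among 19931 named genes in all. They were followed here across hearts with different Irx3 and Irx5 genotypes. These linked genes encode homeodomain transcription factors of the Iroquois family.

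Endocardial cushions are matrix-rich swellings of the atrioventricular canal and outflow tract. BMP and TGF-beta ligands, together with Notch activity in the endocardium, drive some endocardial cells to leave their sheet and invade the matrix as mesenchyme, and neural crest and epicardial cells add to the same population. Snai1, Snai2 and Twist1 encode transcription factors of this epithelial-to-mesenchymal transition, Msx1 and Msx2 encode homeodomain factors downstream of BMP, Sox9 and Scx encode factors of cartilage-like and tendon-like valve precursors, Prrx1 and Prrx2 encode paired-related homeodomain factors of mesenchyme, and Postn encodes periostin, a matrix protein secreted by valve mesenchyme and fibroblasts.

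Expression was read as log2 intensity on 14 Affymetrix Mouse Gene 1.0 ST arrays, with RNA from hearts of embryos aged E12.5 (embryonic day). The reference, as the series text has it, was Irx5+/-, with 3 arrays. Mutants of Irx3 on that background (Irx3-/-;Irx5+/-) had 4 arrays, Irx5-/- had 3, and Irx3-/-;Irx5-/-, called double mutants, had 4. All 14 arrays therefore came from hearts with at least 1 mutant Irx5 allele, and the groups hold no heart that is wild type for Irx5. The labels call the tissue heart, with no dissection of the cushions, and give neither the construction of the mutant alleles nor whether the arrays of a group came from different embryos. The p-values here therefore reflect the spread among the samples hybridised, part of which may be technical.

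Array medians ran from 7.89 to 7.99. The 12 cardiomyocyte markers all lay above the median of all genes (Ryr2 lowest, at percentile 90.3, and Actc1 highest, at percentile 100), whereas 1 of 6 foregut and lung epithelium markers and 1 of 5 skeletal muscle progenitor markers did. Irx3 was lower than in the reference by 0.74 ± 0.0972 (SE) in double mutants (adjusted p = 0.0201, limma with Benjamini-Hochberg adjustment) and lay at -0.50 in Irx3-/-;Irx5+/- and at -0.27 in Irx5-/- hearts (adjusted p = 0.673 and 0.400), with no overlap with the reference in any of these groups. Irx5 lay at -0.29 in Irx5-/- and -0.28 in double mutants, and both groups overlapped the reference (adjusted p = 0.588 and 0.532). The overlap came from Irx5-/- replicate 2, at 8.34 beside 7.86 and 7.91 in its group, and from double mutant replicates 1 and 2, at 8.20 and 8.43, against 8.19 to 8.41 in the reference, and the 8.43 was the highest of the 14 arrays. Whether these arrays carry their labelled genotype was not tested, and the labels were followed. Where these probe sets lie relative to the deletions is not given, so they check the labels only in part. Irx3-/-;Irx5+/- replicate 4 has a free-text description that names Irx5-/-, against its title, source and genotype fields. Its Irx3 value of 8.17 lay within the Irx5-/- range of 8.14 to 8.25. Its Irx5 value of 8.31 lay above the Irx5-/- values of 7.86 and 7.91 and below that of 8.34. Its endothelial marker mean, 0.53, lay above the Irx5-/- range of -0.59 to -0.17, and its Tgfbr3 value, 10.65, above that of 9.32 to 10.03. The genotype of this array was not tested. Irx5+/- replicate 3 and Irx5-/- replicate 2 had the lowest and highest cardiomyocyte marker means, at -1.64 and 0.69 from the mean of all arrays. Differences of the members between genotypes are given below with and without these 3 arrays where they rest on them. Marker counts and covariate fits are given for all 14 arrays only. The Irx3 difference in double mutants ran from -0.79 to -0.66 over 18 alternatives, but its call was lost in 9 of them (adjusted p of up to 0.353 in limma). These were either marker covariate, the replicate block, a fit of only the groups compared, these 3 arrays left out, and Irx5+/- replicate 2 or 3 or double mutant replicate 3 or 4 left out.

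No member passed the threshold of an adjusted p under 0.05 in any comparison. In double mutants against Irx5+/- hearts, 0 of 10 members were called, where 4 genes in all (0.0201%) were, and 3 of 10 members had an unadjusted p under 0.05, where 13.5% of all genes did. Those 3 were Msx2, Sox9 and Prrx2, and all lay higher in double mutants. Of the 10 members, 7 lay above 0 in this comparison, with a median log2 difference of 0.30 against -0.03 over all genes. The members were not tested as a set.

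Both Msx genes encode repressors of the muscle-segment homeobox family, and each can stand in for the other in cushion development. Promoter sequence was found for 7 of the 10 members, in 8 windows (RefSeq, GRCm38.p6, 250 bases before each gene's start). The windows of Msx1 and Msx2 are shown because these paralogues differed most in how far apart the genotypes lay. Postn had a further window, and that shown was chosen because it holds the core letters that Msx-type homeodomains bind. The windows shown lie at chr5:37824586-37824835 (minus strand) for Msx1, chr13:53472781-53473030 (minus strand) for Msx2 and chr3:54359017-54359266 (plus strand) for Postn. Each is given 5′ to 3′ with matched letters in capitals.
Msx1: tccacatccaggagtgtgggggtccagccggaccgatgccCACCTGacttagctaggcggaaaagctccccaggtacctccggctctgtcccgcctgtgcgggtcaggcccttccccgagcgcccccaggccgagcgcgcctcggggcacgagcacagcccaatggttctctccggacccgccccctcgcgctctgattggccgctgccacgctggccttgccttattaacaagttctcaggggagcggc
Msx2: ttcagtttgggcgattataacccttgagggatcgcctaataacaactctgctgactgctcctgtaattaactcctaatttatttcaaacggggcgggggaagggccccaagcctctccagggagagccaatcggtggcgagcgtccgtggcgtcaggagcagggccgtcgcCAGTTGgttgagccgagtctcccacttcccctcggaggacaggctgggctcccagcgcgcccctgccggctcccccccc
Postn: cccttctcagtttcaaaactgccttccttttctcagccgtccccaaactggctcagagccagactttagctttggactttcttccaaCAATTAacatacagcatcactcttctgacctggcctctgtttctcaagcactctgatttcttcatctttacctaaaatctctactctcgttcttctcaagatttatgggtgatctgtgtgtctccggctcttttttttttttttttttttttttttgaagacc

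The capitals mark CACCTG, 210 bases before the start of Msx1, CAGTTG, 79 bases before that of Msx2, and CAATTA, 163 bases before that of Postn. The patterns searched on both strands, in these bases and the 50 after each start, were CAGGTG or CACCTG (the E-box of SNAI and ZEB factors, held by 20.2% of all 32851 windows), any E-box CANNTG (72.3%, which includes the former), the Iroquois palindrome ACANNTGT (7.38%) and the MSX core TAATTG or CAATTA (8.0%). A CACCTG also stood 126 bases before the start of Snai1, whose product binds such E-boxes. In the Postn window shown, a TAATTG lay 23 bases after the start. The other Postn window, at chr3:54360857-54361106 (plus strand), held none of these patterns. The Iroquois letters were in 0 of the 8 windows of the members, which says nothing about binding elsewhere.

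Msx2 was the member with the smallest p in each comparison that involved the double mutants. Msx2 also had the lowest mean of the members over the 14 arrays, 7.77, below every array median (7.89 to 7.99). Its log2 intensity was 7.62, 7.53 and 7.94 on the Irx5+/- arrays and 7.43, 7.55, 7.65 and 7.52 on the Irx3-/-;Irx5+/- arrays. It was 7.69, 7.81 and 7.55 on the Irx5-/- arrays and 8.06, 8.29, 7.93 and 8.21 on the double mutant arrays. All 4 double mutant arrays lay above every array of both intermediate genotypes. They also lay above every reference array but replicate 3, whose 7.94 exceeded double mutant replicate 3. Group means ordered as Irx3-/-;Irx5+/- at 7.54 ± 0.0918 (SD, n = 4), Irx5-/- at 7.68 ± 0.130 (SD, n = 3), Irx5+/- at 7.70 ± 0.213 (SD, n = 3) and double mutants at 8.12 ± 0.158 (SD, n = 4). Irx5-/- and Irx5+/- overlapped and differed by -0.02, with a 95% confidence interval from -0.29 to 0.26.

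Against Irx3-/-;Irx5+/-, double mutants were higher in Msx2 by 0.59 ± 0.111 (SE), a fold of 1.5 with a 95% confidence interval of 1.27 to 1.77. Msx2 ranked 8 of all genes by p in this comparison, but did not pass the adjustment (adjusted p = 0.281 in limma), and the exact two-sided permutation test of this single gene gave 0.0286, the smallest value 4 arrays against 4 allow, and 0.321 after adjustment over 30 such tests. Here 0 of 10 members were called, where 0.00502% of all genes were, 3 of 10 had an unadjusted p under 0.05, against 7.67% of all genes, and Msx2 alone had no overlap between groups, as 4.82% of all genes did. Against Irx5-/-, Msx2 differed by 0.44 ± 0.120 (SE), again with no overlap (adjusted p = 1 in limma). In that comparison 0 of 10 members were called (0% of all genes), 1 of 10 had an unadjusted p under 0.05 (3.63% of all genes) and 1 of 10 had no overlap (4.11%). Against Irx5+/-, the difference was 0.43 ± 0.120 (SE), a fold of 1.35 with an interval of 1.13 to 1.61 (adjusted p = 0.169 in limma). The 3 comparisons share the double mutant arrays.

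The effect of Irx3 loss on Msx2 was compared between both Irx5 genotypes. Against the mean of their controls, the 4 Irx3-/-;Irx5+/- arrays lay at -0.27 to -0.05 and the 4 double mutant arrays at 0.25 to 0.61. The former difference, -0.16 on average, had an interval from -0.42 to 0.10 and was -0.04 without Irx5+/- replicate 3, so most of it rests on that array. The difference of these effects, which is the interaction of both losses, was 0.60 ± 0.170 (SE), with an interval from 0.24 to 0.97, and was not called (adjusted p = 1 in limma). Msx2 was the 1 member of 10 with an unadjusted p under 0.05 for the interaction, where 4.04% of all genes had one, and 0% of all genes were called. Without the 3 arrays in doubt, the Msx2 differences were 0.58 against Irx3-/-;Irx5+/-, 0.51 against Irx5-/-, 0.55 against Irx5+/- and 0.54 for the interaction, with -0.04 for Irx3-/-;Irx5+/- against Irx5+/-.

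Msx1 showed no such separation. Its group means were 8.15 ± 0.329 (SD, n = 3) in Irx5+/-, 8.11 ± 0.162 (SD, n = 4) in Irx3-/-;Irx5+/-, 8.09 ± 0.266 (SD, n = 3) in Irx5-/- and 8.14 ± 0.127 (SD, n = 4) in double mutants, and all groups overlapped. The difference in double mutants against the reference was -0.01, with an interval from -0.36 to 0.33, and it was 0.35 with the cardiomyocyte marker mean as a covariate (adjusted p = 0.607 in limma). Across the 4 groups Msx1 had the lowest F of the members (0.0474), and Msx2 the highest (10.3, adjusted p = 0.318 in limma). By this F test 1 of 10 members had an unadjusted p under 0.05, against 9.32% of all genes, and 0 were called, against 0.00502%. Over the 14 arrays, Msx1 and Msx2 correlated at r = 0.198.

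**Figure D1:**
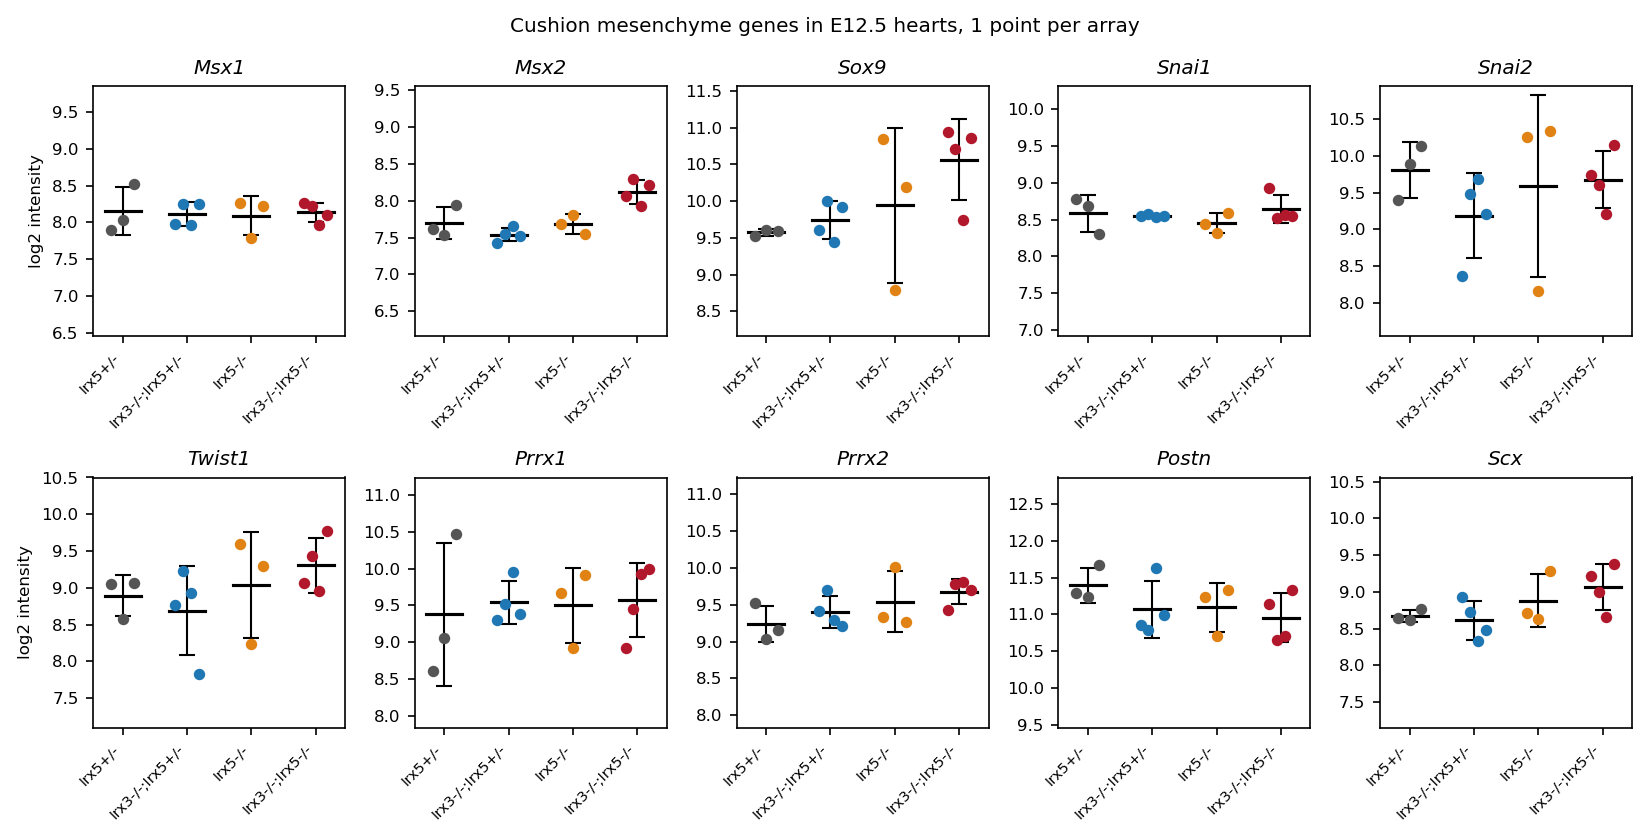
Log2 intensity of the 10 members on each array, by genotype, with 1 point per array, a horizontal line at the group mean and bars of 1 SD; each panel spans the same height on the log2 axis. The 4 double mutant points of Msx2 sit at 7.93 to 8.29, above all Irx3-/-;Irx5+/- and Irx5-/- points, while Sox9 and Snai2 show an Irx5-/- array far below the other 2.

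Sox9, which encodes the factor of precartilage and valve precursor cells, had the largest fold of the members between double mutants and the reference. It read 9.52, 9.61 and 9.60 on the Irx5+/- arrays and 9.61, 10, 9.44 and 9.92 on the Irx3-/-;Irx5+/- arrays. It read 10.85, 8.79 and 10.19 on the Irx5-/- arrays and 10.94, 10.71, 9.75 and 10.86 on the double mutant arrays. The reference arrays lay close together, the double mutants all lay above them, and double mutant replicate 3 was the lowest of its group and within the Irx3-/-;Irx5+/- range. The difference was 0.99 ± 0.386 (SE), a fold of 1.99 with an interval of 1.12 to 3.53, and did not pass (adjusted p = 0.290 in limma). Sox9 was the 1 member of 10 whose double mutant and reference arrays did not overlap, and 12.1% of all genes were so separated, so this count is near the background. Against Irx3-/-;Irx5+/- hearts, Sox9 differed by 0.82 ± 0.357 (SE) with overlapping arrays (adjusted p = 0.624 in limma).

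Irx5-/- replicate 2 decided where Sox9 lay in Irx5-/- hearts. With that array the difference against the reference was 0.37 and that of double mutants against Irx5-/- was 0.62; without it they were 0.95 and 0.04. Without Irx5-/- replicate 1, the highest of that group, they were -0.09 and 1.08. Without the 3 arrays in doubt, double mutants lay 1.00 above the reference and 0.88 above Irx3-/-;Irx5+/-. Irx5-/- replicate 2 was also the lowest of all arrays for the mean of 9 epicardial markers, at -0.98, and double mutant replicate 1, the highest for Sox9, was the highest for these markers, at 1.18. Over the 14 arrays, Sox9 and the epicardial mean correlated at r = 0.82 and rho = 0.705 (permutation p = 0.00024 and 0.00582), with an adjusted p of 0.0216 over 90 pairs of member and marker list for r, and at r = 0.679 without the 2 arrays farthest from the median of the gene. Within genotypes r was 0.814, which did not pass the adjustment (adjusted p = 0.382). The epicardial mean ranged from -0.29 to 0.11 in the reference and from -0.57 to 1.18 in double mutants, with 7 of 9 markers above 0 between them (median 0.20, 3 with an unadjusted p under 0.05, 0 called), and 8 of these 9 markers lay above the median of all genes. The part of epicardial cells in the Sox9 difference was not tested. In whole hearts more cells of a type and more RNA per cell cannot be told apart.

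Scx encodes scleraxis, a factor of tendon and of tendon-like valve precursors. It read 8.64, 8.62 and 8.77 in Irx5+/- and 8.93, 8.72, 8.33 and 8.48 in Irx3-/-;Irx5+/- hearts, and 8.71, 8.63 and 9.29 in Irx5-/- and 9.22, 9.0, 8.66 and 9.38 in double mutant hearts. As for Sox9, double mutant replicate 3 was the low array of its group, and the groups overlapped. Scx lay 0.45 ± 0.181 (SE) higher in double mutants than in Irx3-/-;Irx5+/- hearts (adjusted p = 0.611 in limma) and 0.39 ± 0.196 (SE) higher than in the reference (adjusted p = 0.408), with an interval for the latter from -0.03 to 0.81. Sox9 and Scx correlated at r = 0.651 over the 14 arrays, and r was 0.472 within genotypes.

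Among the factors of epithelial-to-mesenchymal transition, Snai1, a repressor of E-cadherin, had the narrowest range of the members, 0.62. Its arrays ran from 8.30 to 8.93, and in Irx3-/-;Irx5+/- hearts the 4 arrays lay at 8.55 ± 0.0133 (SD, n = 4). Double mutant replicate 1, at 8.93, stood above the other 3 of its group, which lay at 8.52 to 8.56. The difference between double mutants and the reference was 0.05, with an interval from -0.23 to 0.33.

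Snai2, which encodes the related repressor Slug, had the widest range of the members, 2.19 over the 14 arrays. It read 9.40, 9.89 and 10.14 in Irx5+/- hearts, 8.37, 9.48, 9.69 and 9.21 in Irx3-/-;Irx5+/- hearts, 10.26, 8.16 and 10.34 in Irx5-/- hearts and 9.74, 9.61, 9.21 and 10.15 in double mutants. The low arrays were Irx3-/-;Irx5+/- replicate 1 and Irx5-/- replicate 2, and the groups overlapped throughout. Double mutants differed from the reference by -0.13, with an interval from -1.13 to 0.86, which spans folds from 0.458 to 1.82. Without Irx5-/- replicate 2, the difference of Irx5-/- from the reference went from -0.22 to 0.49. Snai1 and Snai2 correlated at r = 0.156.

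Twist1 encodes a basic helix-loop-helix factor that keeps cushion mesenchyme proliferating and migratory. It read 9.05, 8.57 and 9.06 in Irx5+/- hearts, 8.77, 9.23, 8.93 and 7.83 in Irx3-/-;Irx5+/- hearts, 9.59, 8.23 and 9.30 in Irx5-/- hearts and 9.06, 9.43, 8.96 and 9.77 in double mutants. The lowest value belonged to Irx3-/-;Irx5+/- replicate 4, the array with conflicting labels, and the next lowest to Irx5-/- replicate 2. Double mutants lay 0.61 ± 0.323 (SE) above Irx3-/-;Irx5+/- hearts (adjusted p = 0.672 in limma), and 0.33 above them without replicate 4. Against the reference they lay at 0.41, with an interval from -0.34 to 1.16, at -0.10 with the endothelial marker mean as a covariate and at 0.82 with the cardiomyocyte marker mean.

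In Irx5-/- hearts against the reference, 0 of 10 members were called (0% of all genes), 0 had an unadjusted p under 0.05 (10.6% of all genes) and 0 had no overlap between groups (16.2%). Without the 3 arrays in doubt, which left 2 arrays a group, 7 of 10 members had no overlap there, as 38% of all genes did: Msx1, Sox9, Snai2, Twist1, Prrx1 and Scx were higher and Snai1 lower in Irx5-/- hearts, and 0 were called. Of the members, 5 lay above 0 there, with a median of 0.05 against -0.03 over all genes. In Irx3-/-;Irx5+/- hearts against the reference, again 0 of 10 were called (0% of all genes), 0 had an unadjusted p under 0.05 (5.07%) and 0 had no overlap (5.73%), with 3 members above 0 and a median of -0.05 against 0. The widest difference in that comparison was that of Snai2, at -0.62, with an interval from -1.62 to 0.37.

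**Figure D2:**
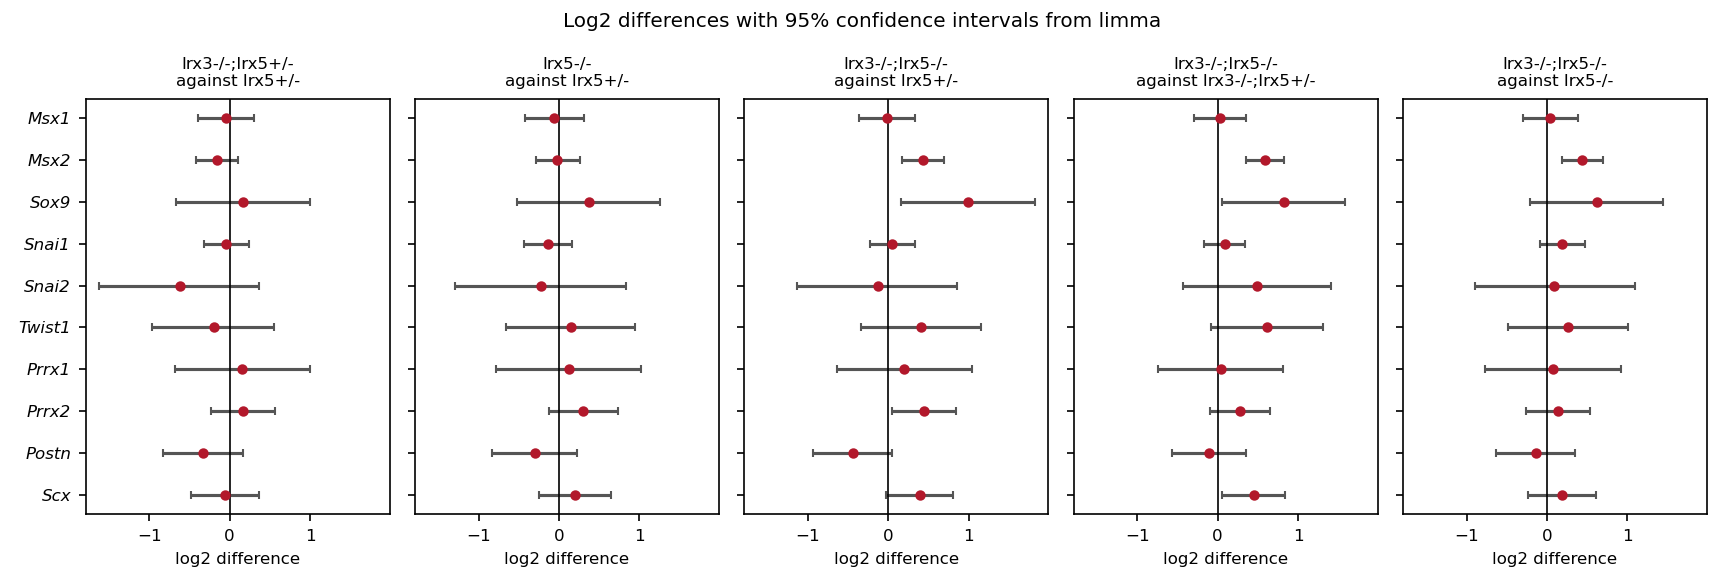
Log2 difference of each member in 5 comparisons of genotypes, with points for the limma estimate and bars for its 95% confidence interval; the vertical line marks no difference. The interval of Msx2 lies above 0 in the 3 comparisons of double mutants, from 0.17 to 0.69 against Irx5+/-, and those of Snai2, Sox9 and Prrx1 are the widest.

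The Prrx genes encode homeodomain factors of craniofacial, limb and cardiovascular mesenchyme that overlap in function. Prrx2 read 9.52, 9.04 and 9.16 in Irx5+/- hearts and 9.41, 9.70, 9.29 and 9.21 in Irx3-/-;Irx5+/- hearts. It read 9.33, 10.02 and 9.27 in Irx5-/- hearts and 9.43, 9.78, 9.81 and 9.70 in double mutants. Of the double mutants, 3 lay above every reference array and replicate 1 lay below reference replicate 1. The difference was 0.44 ± 0.186 (SE), a fold of 1.36 with an interval of 1.03 to 1.79 (adjusted p = 0.323 in limma). Prrx1 ranged more widely, from 8.61 to 10.47, with both extremes among the 3 reference arrays. Its double mutants lay at 9.58 ± 0.501 (SD, n = 4) and differed from the reference by 0.20, with an interval from -0.64 to 1.04; this was 0.74 without reference replicate 3 and -0.19 without replicate 1. The pair did not vary together over the 14 arrays (r = -0.178).

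Postn was the member that lay lowest in double mutants relative to the other groups. It read 11.29, 11.23 and 11.67 in Irx5+/- hearts and 10.86, 10.79, 11.63 and 10.99 in Irx3-/-;Irx5+/- hearts. It read 11.24, 10.71 and 11.33 in Irx5-/- hearts and 11.14, 10.65, 10.70 and 11.33 in double mutants. The reference was the highest group by mean, at 11.40 ± 0.241 (SD, n = 3), and the double mutants the lowest, at 10.95 ± 0.334 (SD, n = 4), with overlapping arrays. The difference was -0.44 ± 0.231 (SE), with an interval from -0.94 to 0.05 (adjusted p = 0.432 in limma). It was -0.30 without Irx5+/- replicate 3, the highest of the 14 arrays.

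Cardiomyocyte markers moved with Postn and Prrx2, in opposite directions. All 12 of these markers lay above 0 in double mutants against the reference (median 1.22, 11 with an unadjusted p under 0.05, 0 called), and their mean ranged from -1.64 to 0.12 in the reference, -0.34 to 0.40 in Irx3-/-;Irx5+/-, -0.22 to 0.69 in Irx5-/- and 0.17 to 0.52 in double mutants. Over the 14 arrays this mean correlated with Postn at r = -0.746 and rho = -0.688 (permutation p = 0.00083 and 0.00829, adjusted p for r = 0.0369 over 90 pairs) and with Prrx2 at r = 0.724 and rho = 0.789 (permutation p = 0.00183 and 0.00131, adjusted p for r = 0.0412). Without the 2 arrays farthest from the median of the gene, r was -0.686 and 0.649. Those 2 arrays included Irx5+/- replicate 3 for Postn but not for Prrx2. That array lay at -1.64 for the cardiomyocyte mean, beside 0.12 and -0.63 in its group. The marker counts and the covariate fits below were not run without it. Within genotypes r was -0.649 and 0.615 (adjusted p = 0.344 and 0.441). With the cardiomyocyte mean as a covariate, the double mutant difference against the reference was 0.03 for Postn and 0.09 for Prrx2, while that of Msx2 was 0.56 and that of Sox9 was 1.48. The same covariate took Prrx1 from 0.20 to 1.19, Snai2 from -0.13 to 0.93, Twist1 from 0.41 to 0.82, Msx1 from -0.01 to 0.35, Scx from 0.39 to 0.49 and Snai1 from 0.05 to -0.06, and 0 of the 10 members were called. Endothelial and endocardial markers, which stand for the tissue that gives rise to cushion mesenchyme, all lay below 0 in the same comparison (12 of 12, median -0.86, 12 with an unadjusted p under 0.05, 0 called), at means of 0.35 to 0.67 in the reference and -0.92 to 0.18 in double mutants. In Irx5-/- hearts against the reference, 0 of 12 lay above 0 (median -0.79, 10 with an unadjusted p under 0.05, 0 called). Double mutants against Irx5-/- hearts had a median of -0.09, with 1 marker at an unadjusted p under 0.05. With the endothelial mean as a covariate, Msx2 lay at 0.50 in double mutants against the reference, Sox9 at 1.12, Scx at 0.53 and Snai1 at 0.12. It took Prrx1 from 0.20 to -0.46, Snai2 from -0.13 to -0.42, Postn from -0.44 to -0.65 and Twist1 from 0.41 to -0.10. Msx1 stayed within -0.03 to 0.35 and Prrx2 within 0.09 to 0.48, their ranges over the alternatives that left out no single array. Of the 10 members, 0 were called. Both covariates themselves differed between genotypes. The cardiomyocyte mean averaged -0.72 in the reference and 0.36 in double mutants, and the endothelial mean 0.46 and -0.4. The covariate fits therefore cannot separate genotype from marker level, and the part of either cell type in these differences was not tested.

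**Figure D3:**
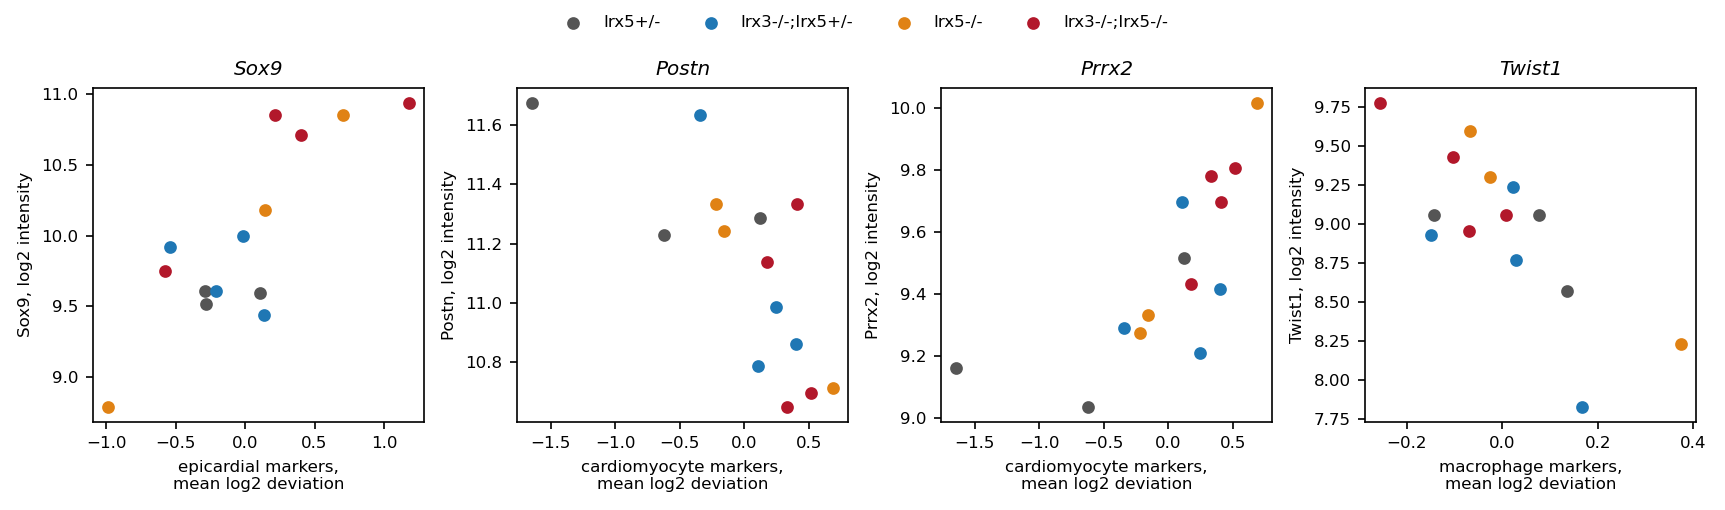
Log2 intensity of 4 members against the mean log2 deviation of a cell type marker list, with 1 point per array coloured by genotype (14 arrays). Sox9 is plotted against epicardial markers (r = 0.82), Postn and Prrx2 against cardiomyocyte markers (r = -0.746 and 0.724) and Twist1 against macrophage markers (r = -0.775), and single arrays at the ends of each axis carry part of each slope.

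Of the 90 pairs of a member and a marker list, 4 passed the adjustment by Pearson's r over all 14 arrays. By rank correlation 0 of 90 passed, with adjusted p for rho of 0.131 for Sox9, 0.149 for Postn, 0.0765 for Prrx2 and 0.252 for Twist1 in these 4 pairs (permutation tests). Within genotypes 0 passed by r, where the smallest adjusted p was 0.113. The fourth pair was Twist1 and macrophage markers, at r = -0.775 and rho = -0.613 (permutation p = 0.00123 and 0.0224, adjusted p for r = 0.0369), with r = -0.639 without the 2 arrays farthest from the median of the gene and -0.825 within genotypes (adjusted p = 0.179). Of the 6 macrophage markers, 1 lay above the median of all genes, and their mean ranged only from -0.26 to 0.37 over the arrays. Neural crest glia and neuron markers, which mark derivatives of a source of outflow cushion cells, ranged from -0.17 to 0.20, and 2 of the 6 measured lay above the median of all genes. Smooth muscle and pericyte markers ranged from -0.61 to 0.35, with 5 of 8 above 0 in double mutants against the reference (median 0.18). Erythroid markers ranged from -0.67 to 1.51, with 4 of 5 above 0 (median 0.63).

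Several members varied far more between arrays of 1 genotype than most genes did. The residual SD, the spread left within genotypes, was 0.695 for Snai2, 0.585 for Prrx1, 0.578 for Sox9 and 0.521 for Twist1, at percentiles 98.7, 97.5, 97.4 and 96.3 of all genes. It was 0.15 for Msx2 and 0.166 for Snai1, at percentiles 31.5 and 40.3. The others lay between, from percentile 62.8 for Msx1 to 85.8 for Postn. Irx5-/- replicate 2 was the lowest of the 14 arrays for Msx1, Sox9 and Snai2, and the highest for Prrx2.

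No pair of members passed the adjustment for correlation across arrays. Of the 45 pairs, 34 had r above 0, and the smallest adjusted p was 0.125 over all arrays and 0.106 within genotypes (permutation tests over 14 arrays). The share of r above 0 among pairs of all genes was not computed. The 45 pairs also share genes and arrays, so this count is a description only. The highest r were those of Sox9 with Twist1 (0.658), Sox9 with Scx (0.651) and Snai2 with Postn (0.644). The lowest was that of Prrx2 with Postn (r = -0.682). Prrx2 had r below 0 with 6 of the other members.

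**Figure D4:**
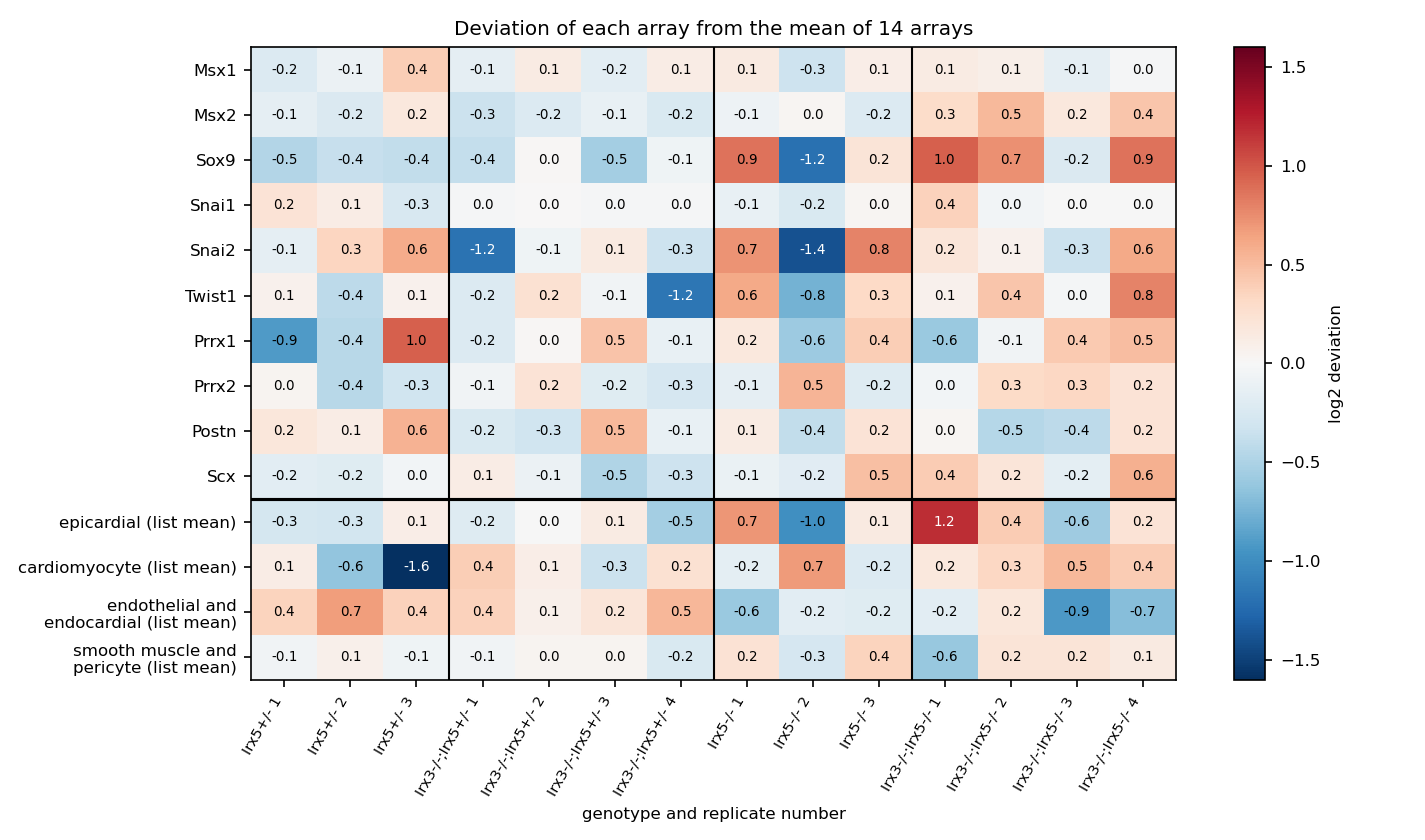
Deviation of each array from the mean of the 14 arrays, in log2 units, for the 10 members (upper rows) and the means of 4 cell type marker lists (lower rows); columns are arrays grouped by genotype, red is above and blue below the mean. Irx5-/- replicate 2 is low for Sox9, Snai2, Twist1 and the epicardial mean, and Irx5+/- replicate 3 is low for the cardiomyocyte mean, at -1.64.

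Genes that act with the members in the cushions were counted by list, and no member of these lists passed over all genes in any comparison. Among 18 inducing signals and their receptors, 1 lay higher and 3 lower in double mutants against the reference at an unadjusted p under 0.05 (13.5% of all genes did so in either direction), 4 lay above 0 and the median was -0.11. Bmp2, the myocardial BMP ligand that induces cushions and Msx2, lay 1.07 ± 0.346 (SE) higher, with 7.15 to 8.15 on the reference arrays and 8.21 to 9.58 on the double mutants (adjusted p = 0.212 in limma). Tgfbr3, the TGF-beta co-receptor betaglycan, differed by -0.84 ± 0.263 (SE), with 10.34 to 10.75 in the reference and 9.05 to 10.25 in double mutants (adjusted p = 0.203). Neither gene's arrays overlapped between these groups. On the Irx5-/- arrays Bmp2 read 7.71 to 8.16 and Tgfbr3 read 9.32 to 10.03.

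The lists nearer to the members themselves were divided as well. Of 12 family relatives and partners, 2 lay higher and 0 lower at an unadjusted p under 0.05, where 13.5% of all genes did in either direction. Of these 12, 5 lay above 0, and the median was -0.11. Named for their smallest p were Sox5, at 0.51 ± 0.196 (SE), and Sox6, at 0.33 ± 0.128 (SE). Both act beside Sox9, and both had overlapping arrays (adjusted p = 0.286 and 0.281 in limma). Of 12 other cushion and valve transcription factors, 2 lay higher and 3 lower at that threshold, with 6 above 0 and a median of 0.02. Tbx20, a regulator of myocardium and cushion mesenchyme, differed by 0.87 ± 0.175 (SE), with 9.90 to 10.42 in the reference, 10.14 to 10.69 in Irx3-/-;Irx5+/-, 10.74 to 11.06 in Irx5-/- and 10.77 to 11.38 in double mutants (adjusted p = 0.108). Tbx3, a factor of the atrioventricular canal and conduction system, differed by 0.57 ± 0.138 (SE), with 7.98 to 8.20 in the reference and 8.36 to 8.94 in double mutants (adjusted p = 0.139).

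Of 24 matrix genes, 4 lay higher and 4 lower at an unadjusted p under 0.05 (13.5% of all genes in either direction). Of these, 7 lay above 0, with a median of -0.17. Vcan, which encodes the cushion proteoglycan versican, differed by 0.76 ± 0.222 (SE), with 10.33 to 11.14 in the reference and 11.18 to 11.96 in double mutants (adjusted p = 0.179 in limma). Has2, which encodes the enzyme that makes the hyaluronan of the cushion matrix, differed by 1.51 ± 0.524 (SE), with 6.66 to 8.49 in the reference and 8.41 to 9.61 in double mutants, which overlapped (adjusted p = 0.242). Both lay higher where Postn lay lower, and none of the 3 passed.

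The genes whose levels followed each member most closely over the 14 arrays were picked as the highest of all named genes, so their r is a description. They were Zcchc3, Trim59 and Sdf2l1 for Msx2 (r = 0.863, 0.839 and 0.826) and Fah, Zfp358 and Cnpy4 for Msx1 (r = 0.924, 0.846 and 0.843). Sox9 was most like Itga4, Lratd2 and Adcyap1r1 (r = 0.891, 0.875 and 0.871), and Scx most like Nasp, P4ha1 and Kif15 (r = 0.882, 0.843 and 0.825). For Snai1 they were Cyp2s1, Tfap2b and Zpbp (r = 0.904, 0.835 and 0.83), for Snai2 Chst2, Il16 and Kcna6 (r = 0.905, 0.904 and 0.886), and for Twist1 Cthrc1, Ndn and Rpl34 (r = 0.873, 0.872 and 0.854). Cthrc1 is a secreted collagen-associated protein and stands in the matrix list above. Prrx1 was most like Gtf3c5, Stmn2 and Ski (r = 0.871, 0.853 and 0.837), and Stmn2 stands in the neuron marker list. Prrx2 was most like Egln1, Wdr43 and Anapc13 (r = 0.93, 0.914 and 0.912), and Postn most like Sdcbp, Srsf5 and Egfr (r = 0.927, 0.895 and 0.875). No gene was among the 3 of more than 1 member.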

How the data were processed

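Expression in E12.5 mouse hearts was measured on 14 Affymetrix Mouse Gene 1.0 ST arrays from 1 ng of RNA each. The authors deposited log2 intensities, 1 per probe set and array, made with RMA (R package affy) over all arrays together, per the file headers and the submitters' processing notes (versions and the array's genome build not given in the sources used here). They were used as deposited. Of 28763 probe sets, 21776 had 1 gene symbol, 1592 several and 5395 none in the platform annotation; symbols were updated by gene ID (GRCm38.p6) and the brightest probe set per gene was kept, which left 19931 genes.

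One limma fit (version 3.58.1, R 4.3.3) gave each group a mean over all 14 arrays, with 10 residual degrees of freedom, two-sided p-values and Benjamini-Hochberg adjustment over all genes (threshold 0.05). Errors beside log2 differences are its SEs, and those beside group means are SDs. The fit was tested on simulated data. Single genes also had an exact permutation test, and correlations a permutation test with 100000 draws (within genotypes, on deviations from group means). Precision is set by how many arrays there are, since intensities carry no read depth.

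The members, lists and tests were chosen with earlier results of these data known. Named beyond the members were Irx3 and Irx5, up to 4 called genes per pathway list or else the 2 with the smallest p in double mutants against the reference, the lowest and highest marker of a list, and the 3 genes most like each member. For the latter, predicted genes, olfactory and vomeronasal receptors, small RNAs and the other members were left out. Alternatives covered probe set choice, normalization, variance prior, array weights, filters, the replicate number, 2 cell type covariates and each array left out; leaving out 3 arrays together was chosen after seeing the data.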

Additional observations from a re-analysis of the deposited data

Results flagged for a closer look

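Snai1 in double mutant replicate 1 stood apart from its group at 8.93, with the other 3 arrays at 8.52 to 8.56, a gap of 0.909 of the group's range, above the critical value of Dixon's test. It was the 1 outlier among 24 groups of 4 arrays tested, and chance marks about 1 in 20 such groups.

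For Msx2, every Irx3-/-;Irx5+/- array lay below the mean of Irx5+/- (mean effect -0.16) and every double mutant lay above the mean of Irx5-/- (mean effect 0.44). The difference of these effects was 0.60 (adjusted p = 1 for the interaction in limma). Without Irx5+/- replicate 3 the former effect was -0.04 and the difference 0.48.

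Snai1 had the same arrangement at a smaller size, with -0.05 to -0.02 in Irx3-/-;Irx5+/- and 0.07 to 0.48 in double mutants, a difference of 0.23 (adjusted p = 1 for the interaction in limma). The arrangement was lost without Irx5+/- replicate 1, where the effect in Irx3-/-;Irx5+/- was 0.06 and the difference 0.13. Without double mutant replicate 1 the effect in double mutants was 0.09, against 0.19 with it.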

How the results depend on the processing

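Over 1194 recomputed differences of the members, 0 were called and 112 had the other sign than in the fit as reported, of which 8 turned a difference that was larger than its own SE. The smallest adjusted p was 0.113, for Msx2 in double mutants against Irx3-/-;Irx5+/- with array weights. The Msx2 difference there kept its direction under each alternative that held Msx2, and ran from 0.53 to 0.65 with arrays left out. The filter on genes below the median level removed Msx2, so no difference was recomputed there. With arrays left out, the Msx2 difference ran from 0.35 to 0.55 against Irx5+/- and 0.38 to 0.51 against Irx5-/-. With the cardiomyocyte mean as a covariate, Postn turned to 0.03 in Irx3-/-;Irx5+/-, 0.06 in Irx5-/- and 0.03 in double mutants against the reference, and Snai2 to 0.19 in Irx3-/-;Irx5+/-. With the endothelial mean, Twist1 turned to -0.10 in double mutants. Without the 3 arrays in doubt, Postn turned to 0.03 in Irx5-/- and the Snai2 interaction to -0.16; the latter ran from 0 (without Irx5-/- replicate 2) to 1.09 with single arrays left out. The cause was not tested.

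Counts over all genes moved more. In double mutants against Irx5+/-, 4 genes were called, against 2 with probe sets averaged, 15 with only the groups compared, 7 with array weights, 14 with all probe sets, 0 with either covariate and 0 to 23 with an array left out (0 without Irx5+/- replicate 2, 23 without replicate 1, 10 without double mutant replicate 2). Against Irx3-/-;Irx5+/- the 1 gene called became 0 with probe sets averaged, only the groups compared, either other normalization, the dim filter, either covariate or the 3 arrays left out, 5 with all probe sets and 0 to 0 with any single array left out. The F test's 1 gene became 0 with probe sets averaged, quantile normalization, either covariate or the 3 arrays left out, 9 with all probe sets and 0 to 2 with an array left out. Calls rose from 0 to 1 in Irx3-/-;Irx5+/- without the 3 arrays, to 2 in Irx5-/- with quantile normalization (0 to 1 with an array left out) and to 2 in double mutants against Irx5-/- with a trended, robust prior (0 to 1).

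Members whose groups did not overlap numbered, with an array left out and then without the 3 arrays, 0 to 2 and 2 in Irx3-/-;Irx5+/-, 0 to 3 and 7 in Irx5-/- (3 without replicate 2, where 25.1% of all genes had no overlap, and 7 where 38% did) and 1 to 3 and 3 in double mutants against the reference (2 with quantile normalization). In double mutants they numbered 1 to 3 and 1 against Irx3-/-;Irx5+/-, and 1 to 3 and 3 against Irx5-/-. Without the 3 arrays, 16.8% of all genes had no overlap in Irx3-/-;Irx5+/- and 18.8% in double mutants against the reference. For double mutants these shares were 7.49% against Irx3-/-;Irx5+/- and 15.7% against Irx5-/-. Smaller groups overlap less by construction.

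Arrays of different groups with the same replicate number correlated at a mean of -0.0194 in their deviations, with 4 of 19 pairs over 0.1. Those with other numbers correlated at a mean of 0.00661, with 13 of 54 pairs over 0.1. Of 14 arrays, 2 correlated best with their own number. The main fit did not treat the numbers as pairs, and whether they pair the samples was not tested. With the replicate block, 0 genes were called in double mutants against the reference, 0 against Irx3-/-;Irx5+/- and 0 by the F test, and Msx2 differed by 0.42 and 0.59 in those comparisons.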
